A study of Mus musculus with 19 samples.

Results

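Mammary tumors of MMTV-neu mice were compared with mammary glands of wild-type mice in 11 of the 19 RNA-seq samples of the series: 8 tumors and 3 glands, taken by the tissue and genotype in the sample records. The 8 tumors are 4 N tumors (MMTV-neu;Fsp-Cre) and 4 NP tumors (MMTV-neu;p53wm-R172H/+;Fsp-Cre), so by these records every tumor mouse carried the neu transgene and the fibroblast Cre, and the NP mice also carried 1 conditional allele of mutant p53. The study's methods count as N mice, besides these, ones that hold the conditional allele without Cre. The 3 WT glands carried neither transgene nor mutant allele and came, by the study's methods, from age-matched normal mice. No ages were used here. The MMTV promoter drives neu in mammary epithelium and Fsp-Cre is meant to act in fibroblasts, so the tumor cells themselves were not the target of the p53 allele. The tumor cohorts had a mixed FVB/C57/BALB/c background, and the background of the WT mice is not given in the sources used here. The other 8 samples, glands of N and NP mice, enter only as context.

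A normal mammary duct is a bilayer. The inner luminal layer holds hormone-sensing cells, which carry the estrogen, progesterone and prolactin receptors, and alveolar progenitors, which make milk after pregnancy. The outer basal layer is made of contractile myoepithelial cells that rest on a basement membrane. ERBB2 (HER2, called neu in the rat) is a receptor tyrosine kinase that has no ligand of its own and signals in pairs with EGFR, ERBB3 or ERBB4, mainly through PI3K and MAP kinase, and its overexpression in this epithelium gives adenocarcinomas of luminal type. In bulk tissue, fewer cells of a type and less RNA per cell cannot be told apart.

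The table held normalized counts of 46078 genes, that is, reads per gene divided by a size factor for each library. The tumors had 20972633 to 27262440 reads on genes (median 23377942, n = 8) and the WT glands 54677315 to 62645459 (n = 3). Below, a gene's values are normalized counts, with the glands first and the tumors second. A ± after a mean of normalized counts is the SD over 3 glands or 8 tumors, and a ± after a log2 difference is its standard error (SE), and where a gene rose or fell by a value that value is on the log2 scale. The WT glands held little fat: *Adipoq*, the adipocyte hormone adiponectin, was at 1.71, 23.4 and 9.82 in WT glands 1, 2 and 3 and between 14468 and 47029 in the 8 glands of N and NP mice. All 18 adipocyte markers together summed to 8287 to 10328 normalized counts in the WT glands and 341630 to 945123 in the other glands. Markers of luminal epithelium summed to 112828 to 131612 in the WT glands against 13601 to 41318 in the other glands, and basal markers to 76857 to 91583 against 16277 to 82241. In luminal markers every WT gland lay above every other gland, and in basal markers the ranges overlapped.

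The WT libraries also stood apart in the kinds of RNA they held. Gm26917 and Gm42418, which are annotated as long noncoding RNA genes, took 11.9% to 14.3% of the WT libraries' reads and 1.16% to 2.76% of the tumors' reads. What RNA these reads came from was not tested. Small nuclear, nucleolar and Cajal body RNAs took 0.068% to 0.0777% in the WT glands and 1.78% to 4.42% in the tumors. In neither class did tumors and glands overlap (exact permutation test, two-sided, on the mean share, p = 0.00606, the smallest it can give, and 0.00833 after Benjamini-Hochberg adjustment over 11 classes). Protein-coding genes with a short total exon length tended to be higher in the tumors and those with a long one lower. Over 5 equal groups by the summed length of a gene's exons, the median log2 fold change fell from 0.54 to -0.41. The shortest group reached up to 2431 bases and the longest began at 7531 bases. In the glands of N and NP mice, Gm26917 and Gm42418 took 0.425% to 3.79% of reads. Small nuclear, nucleolar and Cajal body RNAs took 0.457% to 1.69% there. In both classes the WT libraries thus lay apart from the other glands as well as from the tumors. Every WT gland had these traits, so between WT glands and tumors library and tissue cannot be told apart in them. Their part in the results was not tested. Counts after removal of the length trend from the values of protein-coding genes are given where they move a list by more than 1 gene.

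**Figure D1:**
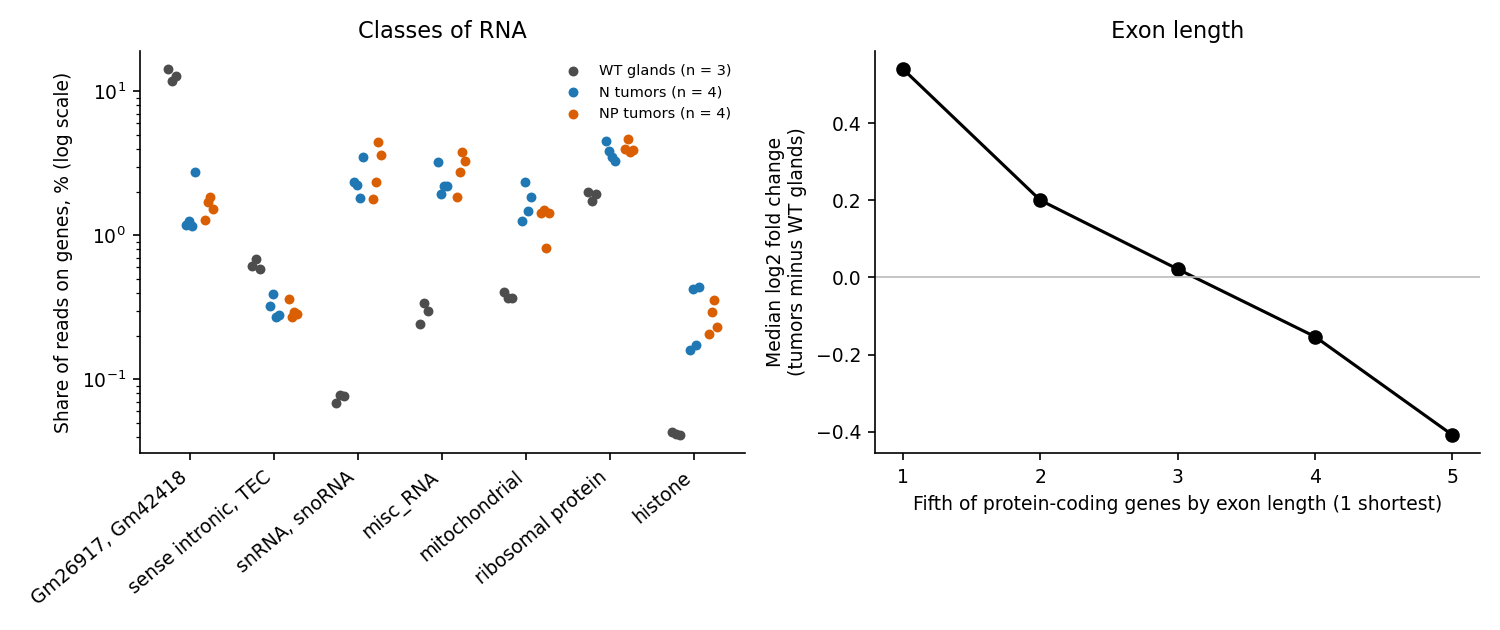
Left: share of reads on genes (percent, log axis) taken by 7 classes of RNA in each of the 3 WT glands (gray), 4 N tumors (blue) and 4 NP tumors (orange), each point a library. Right: median log2 fold change of protein-coding genes in 5 equal groups by total exon length per gene, which falls from 0.54 to -0.41. The WT glands lie apart from every tumor in each class on the left.

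Of 18735 genes tested as log2(normalized count + 1) with limma, 3526 were higher in the tumors (18.8%) and 4960 lower (26.5%), where a call needed a fold change of 2 or more besides an adjusted p below 0.05. These shares are the background for every count of genes below, and the median log2 fold change of all genes tested was -0.07. In 4731 genes (25.3%) every tumor lay above every WT gland, and in 5416 (28.9%) every tumor lay below. The first principal component of the 500 most variable genes held 78.3% of the variance and separated the tissues, with WT glands at -99.4 to -97.9 and tumors at 28.3 to 43.2. The second held 8.01% and set N tumors 2 and 4, at 45.4 and 29.2, apart from the other 6 tumors, at -19.98 to -2. Those 2 tumors return below, in the milk and interferon genes.

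**Figure D2:**
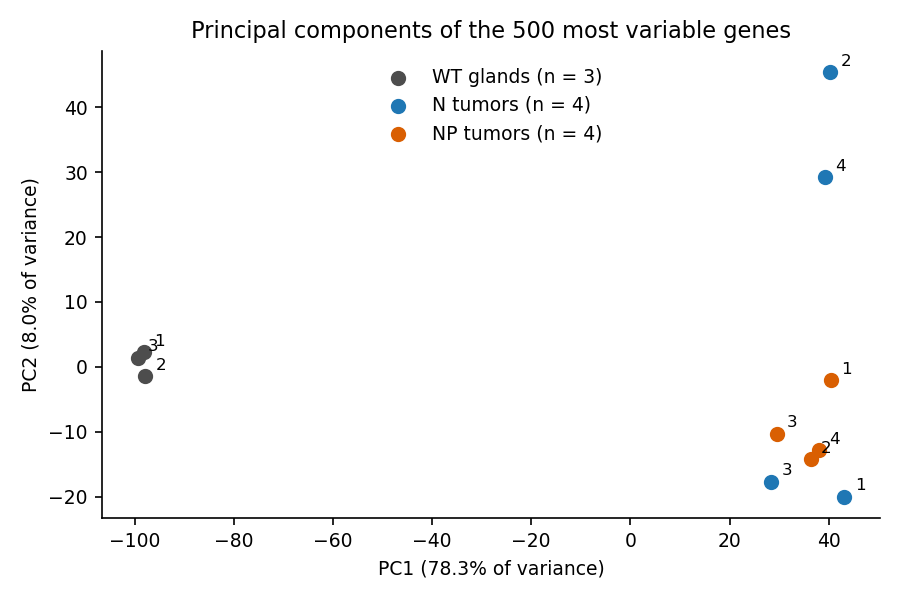
Principal components on the 500 most variable genes, as log2(normalized count + 1), each point a library labelled with its replicate number; the axes give the share of variance. The 3 WT glands (gray) sit together on the left, and N tumors 2 and 4 (blue) sit above the other 6 tumors on the second component.

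*Erbb2* (ENSMUSG00000062312, chromosome 11, 98412470 to 98437716 of GRCm38) was the check of the model. It was at 3826, 3855 and 4210.1 in the WT glands, at 81841, 73426, 155042 and 102598 in N tumors 1 to 4 and at 115481, 117600, 108664 and 84389.7 in NP tumors 1 to 4. Every tumor lay far above every gland, by 4.69 ± 0.21 (SE) on the log2 scale (adjusted p = 1.41e-08, exact permutation p = 0.00606, the smallest possible), and the table does not separate transgene reads from reads of the mouse gene. Of 17 ErbB receptors, ligands and feedback genes, 3 were higher (17.6%) and 4 lower (23.5%), with a median of -0.35. These shares were near the 18.8% and 26.5% of all genes tested. With the length trend removed 6 were lower. Among the partner receptors, *Erbb3* rose by less than 2-fold, from 9091 ± 1328 to 14502 ± 3937 (adjusted p = 0.0206), without overlap. *Egfr* was at 6200.4 to 6866 in the WT glands and 2077 to 5766 (median 3039) in the tumors, a log2 difference of -0.94 ± 0.32 that passed the test but not the fold threshold. *Erbb4* ranged from 86.4 to 2278 in the tumors and 1018 to 1696 in the glands and did not pass. The ligands divided. *Nrg2*, a neuregulin that binds ERBB3 and ERBB4, rose from 105 ± 28.1 to 1062 ± 221 (3.34 ± 0.22, adjusted p = 2.03e-07), and *Egf* from 59.1 ± 9.92 to 1229.7 ± 1291 (3.41 ± 1.01). *Areg*, the estrogen-induced EGFR ligand amphiregulin, fell from 2788 ± 2228 to 43.4 ± 47.3 (-6.13 ± 0.85, adjusted p = 6.19e-05), and *Hbegf*, *Ereg* and *Nrg4* fell as well (log2 fold changes -1.39, -2.34 and -3.43). The WT glands themselves spread widely in *Areg*, at 5040.0, 586 and 2739.6.

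Basal markers were far lower in the tumors. All 15 basal and myoepithelial markers were lower in the tumors, with a median log2 fold change of -4.21. *Krt5* (ENSMUSG00000061527, chromosome 15, 101707070 to 101712898 of GRCm38), the basal keratin, was at 7304, 6884 and 9245 in the WT glands and 3.41 to 26.3 (median 7.68) in the tumors (-9.64 ± 0.57, adjusted p = 9.2e-08). Its partner *Krt14* was at 9047, 10094 and 12949 in the glands and 6.32 to 53.7 (median 25.9) in the tumors (-8.87 ± 0.60, adjusted p = 2.58e-07). In both keratins the groups lay far apart, with no tumor near the lowest gland. *Trp63*, the transcription factor that maintains the basal state, fell from 3373 ± 537 to 123 ± 100.5, and the smooth muscle myosin *Myh11* from 11790.4 ± 2216 to 259.7 ± 95.8. *Oxtr*, the oxytocin receptor through which myoepithelium contracts to eject milk, fell from 9113 ± 1318 to 531 ± 508 (-4.81 ± 0.89). *Acta2* fell by less than the median of the list. It was at 13576 to 19441 in the glands and 882 to 2904 (median 1166) in the tumors (-3.62 ± 0.31). *Actg2* and *Des* overlapped between the groups. The summed level of the list was 3034 to 9956 in the tumors, below the 16277 to 82241 of the fat-rich glands of N and NP mice as well.

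Luminal markers went both ways, at shares near those of all genes. Of 15 luminal epithelial markers, 3 rose (20%), 4 fell (26.7%) and 8 were not called, with a median of 0.11. The shares over all genes tested were 18.8% and 26.5%. *Epcam*, an adhesion molecule of simple epithelia, rose from 9007 ± 1433 to 36906 ± 5948 (2.03 ± 0.17, adjusted p = 1.43e-06), and *Spint1*, an inhibitor of epithelial surface proteases, by 1.09. *Krt18* rose by 1.20 ± 0.29, and neither it nor *Spint1* was called with the length trend removed, while the keratin partner *Krt8* was at 15499 to 19548 in the glands and 15091 to 45607 (median 25000.5) in the tumors, a difference that did not pass (0.50 ± 0.28, adjusted p = 0.13). *Cdh1*, the epithelial cadherin, was at 11190.2 to 14368 and 4892 to 11767 (median 7289) and changed by less than 2-fold (-0.72 ± 0.22). *Krt19* went the other way from *Krt18*: the glands had 17055, 19345 and 21111 and the tumors 215, 33.7, 215 and 39.7 (N tumors 1 to 4) and 74, 194, 1512 and 72.4 (NP tumors 1 to 4), a log2 fold change of -7.15 ± 0.91 (adjusted p = 3.12e-05) with no overlap. The tight junction gene *Cldn4* and the mucin *Muc1* fell too (log2 fold changes -2.56 and -1.75), whereas *Cldn3* and *Cldn7* had log2 differences of 0.62 and 0.38 and were not called.

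Genes of the hormone-sensing luminal cells fell together: 13 of 16 hormone receptors and targets were lower and 1 higher, with a median of -4.45. The list summed to 77998 to 93358 in the WT glands and 16211 to 25377 in the tumors. In the glands of N and NP mice it summed to 14620 to 29252, a range that spans the tumors. *Prlr*, the prolactin receptor, was at 49242, 53878 and 55475 in the glands and 2569 to 5084 (median 2879) in the tumors (-4.00 ± 0.22, adjusted p = 6.06e-08). *Esr1*, the estrogen receptor, was at 2512, 3424 and 3598 and 107 to 854 (median 209) (-3.69 ± 0.53, adjusted p = 7.35e-05). *Pgr*, the progesterone receptor, was at 8508, 3567 and 8943 in the glands and at 286, 4.21, 12.1 and 1.17 in N tumors 1 to 4 and 22.4, 9.76, 514 and 271 in NP tumors 1 to 4 (-7.60 ± 1.55, adjusted p = 0.00104). All 3 receptors were lower in every tumor than in every gland, but *Pgr* was less depleted in N tumor 1 and NP tumors 3 and 4. The paracrine signals that progesterone induces fell with them: *Tnfsf11*, which encodes RANKL, was at 1908, 134 and 3658 in the glands and 0 to 19.2 (median 3.39) in the tumors, and *Wnt4* at 2284, 1169 and 2513 and 28.4 to 80.8 (median 42.8). WT gland 2 held the lowest *Pgr* and the lowest *Tnfsf11* of the 3 glands. *Cited1* overlapped through N tumor 2, which held 844 against 6.24 to 49.4 in the other tumors. The exception in the list was *Socs2*, a target of STAT5 that damps growth hormone and prolactin signals, which rose from 1412 ± 280.4 to 11681 ± 3051 (3.02 ± 0.24, adjusted p = 9.34e-07), whereas *Cish*, another STAT5 target, fell by 1.26.

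Among 17 lineage transcription factors 8 were lower (47.1%) and 1 higher (5.9%). *Foxa1*, which opens chromatin for the estrogen receptor, was at 3646, 5038 and 3606 in the glands and at 1.14, 92.7, 4.04 and 2.33 in N tumors 1 to 4 and 2.24, 2.44, 121 and 6.24 in NP tumors 1 to 4 (-8.86 ± 1.20, adjusted p = 4.89e-05). *Gata3*, the master regulator of luminal fate, fell from 8215 ± 1178 to 2083 ± 989.6 (-2.30 ± 0.70). *Tbx3*, found in hormone-sensing cells, fell from 3116 ± 316 to 22.5 ± 10, and *Id4* and *Snai2*, found in basal cells, from 1774 ± 749.6 to 4.43 ± 2.83 and from 373 ± 58.4 to 14.4 ± 7.37. The alveolar regulator *Elf5* did not differ beyond its spread, at 4298 to 6264 and 3990.1 to 7530.4 (median 5778) (0.21 ± 0.20, adjusted p = 0.386). *Ehf* and *Tfap2c* lay above the glands in every tumor by just under 2-fold, 0.93 ± 0.25 and 0.99 ± 0.14. *Bhlha15* (Mist1), a regulator of secretory cells, was the member called higher, from 155 ± 23.5 to 2490.3 ± 1056 (3.89 ± 0.35, adjusted p = 2.19e-06). Markers of luminal progenitors were mixed, with 2 of 12 higher and 6 lower. *Kit* was at 13141 to 18670.4 in the glands and 6683 to 27297 (median 15311) in the tumors (adjusted p = 0.959), *Tspan8* rose by 3.91, and *Cxcl15*, *Rspo1* and *Lif* fell (log2 fold changes -8.45, -7.37 and -3.50).

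**Figure D3:**
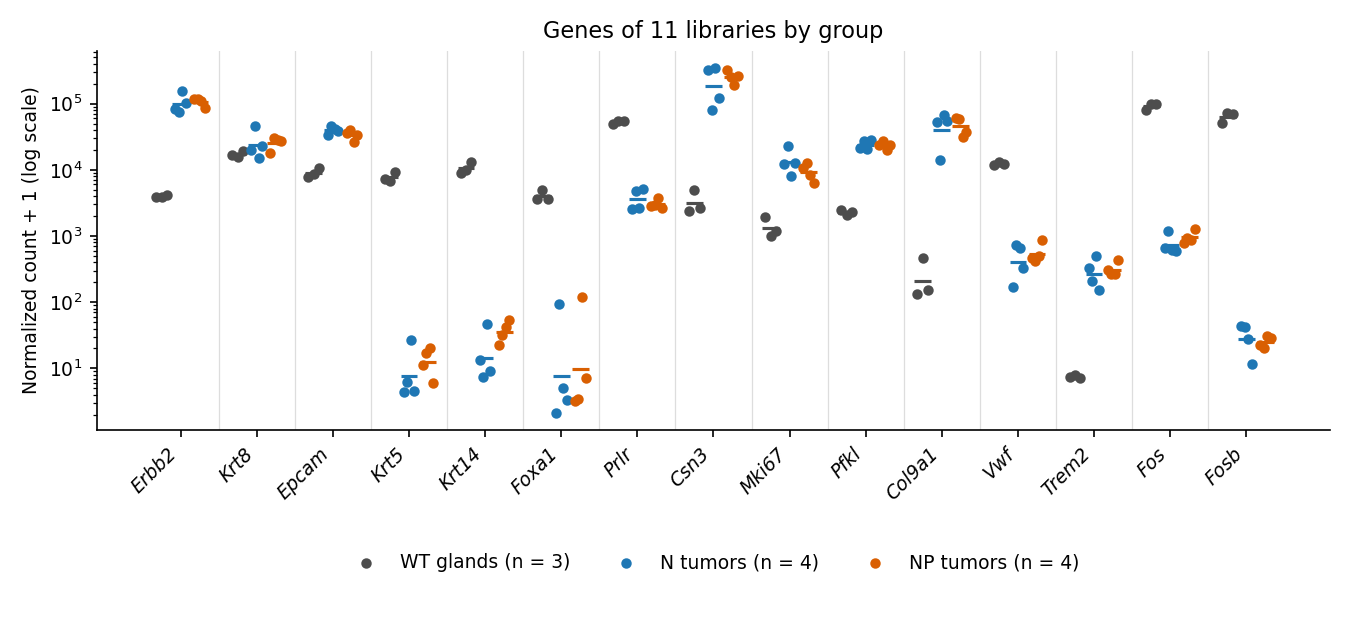
Normalized count + 1 (log axis) of 15 genes in each of the 3 WT glands (gray), 4 N tumors (blue) and 4 NP tumors (orange); points are libraries and bars the group means of the log2 values. Basal keratins, *Foxa1*, *Prlr*, *Vwf*, *Fos* and *Fosb* lie lower in every tumor than in every gland, and *Erbb2*, *Epcam*, *Csn3*, *Mki67*, *Pfkl*, *Col9a1* and *Trem2* higher, while *Krt8* overlaps.

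Milk genes were high in the tumors, and uneven. Of 16 milk and alveolar genes 11 were higher and 2 lower, with a median of 4.98. *Csn3*, which encodes kappa-casein, was at 2395, 4980.1 and 2630.0 in the glands and 81334 to 345119 (median 256131) in the tumors (6.08 ± 0.43, adjusted p = 4.14e-07), and every tumor exceeded every gland. *Csn1s2a*, an alpha-casein (ENSMUSG00000061937, chromosome 5, 87774567 to 87788797 of GRCm38), was at 0.426, 2.44 and 2.07 in the glands and at 30004, 20, 69133 and 176 in N tumors 1 to 4 and 19980.2, 17046, 6197 and 4318 in NP tumors 1 to 4, the largest rise of any protein-coding gene with a mean of at least 100 and no overlap (10.67 ± 2.08, adjusted p = 0.000757). *Csn1s1* was at 652, 75.2 and 207 in the glands, 186943, 144, 301356 and 4119.8 in N tumors 1 to 4 and 121851, 116524, 176888 and 60203 in NP tumors 1 to 4. N tumor 2, and after it N tumor 4, held the least of each of these caseins. The same 2 tumors were lowest in *Wap* (whey acidic protein) and *Btn1a1*, a protein of the milk fat globule, which was at 2498, 8350.5 and 3633 in the glands and at 7521 to 26540.3 in the other 6 tumors and 17.9 and 421 in N tumors 2 and 4, and did not pass (-0.16 ± 1.87, adjusted p = 0.946). Without N tumors 2 and 4, a choice made after seeing the data, 13 of the 16 were higher and 2 lower. *Xdh*, xanthine oxidoreductase of the fat globule, rose from 3576 ± 1454 to 24643 ± 15482 (2.55 ± 0.57), and *Plin2*, the droplet coat, from 2238 ± 495 to 15033 ± 6827 (2.59 ± 0.45). *Folr1*, a folate receptor, rose by 4.75 on the log2 scale. *Glycam1*, a milk mucin, went the other way, from 7132 ± 2599 to 308 ± 381 (-6.27 ± 1.71, adjusted p = 0.00677).

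All 25 mitotic genes were higher in the tumors, the groups overlapped in none of them, and the median log2 fold change was 2.99 (2.87 with the length trend removed, 25 called). *Mki67*, the proliferation antigen Ki-67, was at 1915, 1008 and 1179 in the glands and 6389 to 22970.4 (median 11414) in the tumors (3.06 ± 0.33, adjusted p = 7.96e-06). *Cdk1*, the mitotic kinase, was at 264, 133 and 196 and 1261 to 3893 (median 1844) (3.39 ± 0.34), and its partner *Ccnb2* at 139.9, 115 and 64.6 and 618 to 2087 (median 885) (3.27 ± 0.35). *Ube2c*, the ubiquitin enzyme that feeds the anaphase-promoting complex, had the largest rise of the list, from 58.4 ± 14.3 to 747 ± 357 (3.54 ± 0.38). The summed level was 5011 to 9016 in the glands and was highest in N tumors 2 and 4, at 105511 and 74992, against 30643 to 55233 in the other tumors. Replication genes rose less, with 12 of 20 higher, 0 lower and a median of 1.10. *Rrm2*, which makes deoxynucleotides, rose from 215 ± 98.8 to 2114 ± 1245 (3.20 ± 0.48), and the origin factors *Cdc45* and *Cdc6* by 2.11 and 1.89. *Mcm2*, *Mcm4* and *Mcm6* of the replicative helicase overlapped with the glands and were not called, and *Pcna* was at 2024 to 2575 and 1834 to 3945 (median 2548) (adjusted p = 0.499). With the length trend removed 7 replication genes were called, and without N tumors 2 and 4 there were 9.

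Mitotic promoters are known for CCAAT boxes bound by NF-Y and for the cell cycle homology region TTTGAA, read by complexes that hold these genes off outside division. Within 250 bases upstream of the RefSeq start (GRCm38.p6), CCAAT was found on either strand in 18 of the 21 mitotic genes with a promoter in the table and in 37.5% of all 27025 genes, and TTTGAA in 8 mitotic genes and 18.3% of all genes. Of 16 replication genes, 11 held CCAAT and 3 TTTGAA. The E2F words TTTCCCGC, TTTGGCGC, TTTCGCGC and TTTGCCGC were searched as well. At least 1 of them was in 5 of 16 replication genes, 1 of 21 mitotic genes and 2.16% of all genes. A match describes these letters in this window and is no evidence of binding. The promoters of *Cdk1* and *Ccnb2*, which encode the kinase and cyclin of mitotic entry, are shown with TTTGAA and CCAAT of either strand in capitals (ATTGG and TTCAAA are the reverse strand). *Cdk1* lies at chr10:69352913-69353162 on the minus strand and *Ccnb2* at chr9:70421555-70421804 on the minus strand.
Cdk1: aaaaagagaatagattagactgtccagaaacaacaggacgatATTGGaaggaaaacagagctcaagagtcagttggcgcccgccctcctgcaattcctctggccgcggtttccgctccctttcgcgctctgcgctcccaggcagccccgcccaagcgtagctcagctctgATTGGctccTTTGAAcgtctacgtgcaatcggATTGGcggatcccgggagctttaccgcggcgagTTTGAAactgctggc
Ccnb2: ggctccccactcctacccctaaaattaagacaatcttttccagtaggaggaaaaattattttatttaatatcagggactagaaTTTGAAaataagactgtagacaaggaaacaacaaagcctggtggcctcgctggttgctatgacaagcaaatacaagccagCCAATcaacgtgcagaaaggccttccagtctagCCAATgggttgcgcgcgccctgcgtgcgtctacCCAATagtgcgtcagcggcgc

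Regulators of G1 were mixed, with 6 of 19 higher and 4 lower. *Ccnd1*, cyclin D1, which lies downstream of ERBB2, was at 12075, 5711 and 20241 in the glands and 9191 to 40482 (median 16546) in the tumors and did not pass (adjusted p = 0.221). Its kinase *Cdk4* rose from 2294 ± 747 to 5532 ± 1217 (1.30 ± 0.23), whereas *Cdk6* and *Ccnd2* fell (log2 fold changes -2.42 and -2.70). The INK4 inhibitors rose: *Cdkn2a*, which encodes p16 and ARF, from 9.7 ± 2.63 to 222 ± 199 (3.84 ± 0.80, adjusted p = 0.00122), *Cdkn2b* by 1.98 and *Cdkn2c* by 2.25. *Rb1*, the pocket protein they act through, fell from 6545 ± 1759 to 1195 ± 313 (-2.47 ± 0.25, adjusted p = 5.02e-06). *Trp53* (ENSMUSG00000059552, chromosome 11, 69580359 to 69591873 of GRCm38) was at 2297, 1243 and 2207 in the glands, 708, 1554, 899.8 and 1083 in N tumors 1 to 4 and 567, 640.4, 688 and 896 in NP tumors 1 to 4, lower in the tumors with overlap between N tumor 2 and WT gland 2 (-1.14 ± 0.29, adjusted p = 0.00452, exact permutation p = 0.0121). The table counts both alleles together. Of 20 p53 targets 2 were higher and 6 lower (10% and 30%). *Ccng1* rose by 1.46, *Gdf15* and *Pmaip1* fell (log2 fold changes -3.95 and -2.46), and *Cdkn1a* and *Mdm2* were not called (-0.63 ± 0.39 and -0.14 ± 0.12).

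Immediate-early genes, which cells switch on within minutes of a stimulus, had the lowest median of the 38 gene lists. Of 30 such genes 29 were lower in the tumors and 0 higher, with a median of -4.90. *Fos* was at 81338, 99729.6 and 100009 in the glands and 587 to 1286 (median 832) in the tumors (-6.80 ± 0.24, adjusted p = 1.9e-09). *Fosb* (ENSMUSG00000003545, chromosome 7, 19302696 to 19310051 of GRCm38) was at 50326, 72723 and 70243 and 10.5 to 42 (median 27.4), the largest fall of any protein-coding gene under the same rule as for *Csn1s2a* (-11.23 ± 0.35, adjusted p = 9.27e-10), and *Egr1* at 56853, 77209 and 76864 and 169 to 696 (median 258) (-7.90 ± 0.39). *Jun*, *Atf3*, *Arc* and *Zfp36* fell (log2 fold changes -5.44, -6.07, -7.50 and -5.07), as did *Myc* (-1.78 ± 0.18). *Ier3* was the member not called (-0.46 ± 0.17). The WT glands were the group that stood apart: the list summed to 473853 to 642520 in them, 26117 to 33628 in the tumors and 14398 to 24414 in the glands of N and NP mice. The part of any trait of the WT libraries in this was not tested.

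All 22 tested genes of NF-kB feedback and its cytokines were lower, with a median of -3.18. *Nfkbia*, the inhibitor that the factor induces against itself, was at 15612, 13272 and 21743 in the glands and 1104 to 2890.4 (median 1863) in the tumors (-3.18 ± 0.28, adjusted p = 1.83e-06), *Il6* at 671, 881 and 1139.8 and 1.12 to 12.1 (median 3.33) (-7.67 ± 0.57), and *Icam1* at 5990.5 to 7561 and 87.5 to 271 (median 129) (-5.64 ± 0.30). With the length trend removed 21 were called, *Nfkb1* being at -0.56. Its summed level was 65999 to 90546 in the WT glands, 9272 to 16042 in the tumors and 9767 to 21350.5 in the other glands. Of 19 heat shock genes 2 were higher and 8 lower. The stress-induced *Hspa1a*, *Hspa1b*, *Bag3* and *Dnajb1* fell (log2 fold changes -4.23, -3.98, -3.08 and -1.85). The chaperones *Hspa8* and *Hsp90ab1* differed by less than 2-fold (0.59 ± 0.16 and 0.63 ± 0.16) and were not called. *Hspa1a* was at 1220.1 in N tumor 2 and 364 to 552 in the other tumors.

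Immediate-early promoters carry cAMP response elements, whose core is TGACG. It was found within the same window, on either strand, in 16 of 24 immediate-early genes with a promoter and in 19.8% of all genes, against 4 of 21 mitotic genes and 6 of 16 replication genes. The serum response element core (CArG box) was in 3 of 24 immediate-early genes and 1.62% of all genes. It was in 0 of 21 mitotic genes and 1 of 16 replication genes. *Fos* at chr12:85473640-85473889 on the plus strand and *Fosb* at chr7:19310046-19310295 on the minus strand are shown, since their values are given above, with TGACG in capitals.
Fos: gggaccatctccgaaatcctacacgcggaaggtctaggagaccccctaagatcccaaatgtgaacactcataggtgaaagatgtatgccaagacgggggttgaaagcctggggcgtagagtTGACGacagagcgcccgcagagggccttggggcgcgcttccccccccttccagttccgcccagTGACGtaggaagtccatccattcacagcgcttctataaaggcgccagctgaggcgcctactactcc
Fosb: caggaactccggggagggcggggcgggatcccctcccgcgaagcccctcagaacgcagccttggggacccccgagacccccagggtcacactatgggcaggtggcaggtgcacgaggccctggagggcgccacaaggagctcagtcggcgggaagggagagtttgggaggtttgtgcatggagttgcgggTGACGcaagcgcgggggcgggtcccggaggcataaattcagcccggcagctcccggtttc

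Matrix genes were divided, with several cartilage genes higher. Of 21 tested genes of fibrillar and cartilage matrix 9 were higher and 3 lower, with a median of 1.14. *Col9a1*, a collagen known from cartilage, was at 130.1, 459 and 153 in the glands and 14048 to 66822 (median 53859) in the tumors (7.68 ± 0.48, adjusted p = 1.53e-07), and *Col11a1*, another, at 377, 515 and 324 and 20697 to 45386 (median 28522) (6.17 ± 0.23, adjusted p = 2.46e-09). *Comp*, a thrombospondin of cartilage that binds collagens, was at 101, 108 and 69.2 and 435 to 21462 (median 6913) (5.79 ± 0.91, adjusted p = 0.000159). Every tumor lay above every gland in these 3 genes, yet *Col2a1*, the main cartilage collagen, was at 11.9 to 71.8 and 3.41 to 99.2 (median 27.7) and was not called, and *Acan*, *Matn1* and *Hapln1* were too low to test. *Thbs4*, *Cilp* and *Thbs2* rose by 2.88, 3.10 and 1.30. The small leucine-rich proteoglycans *Prelp* and *Fmod* fell (log2 fold changes -4.64 and -3.29).

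Fibroblast genes did not rise as a group: 0 of 19 tested were higher and 7 lower. *Dcn*, the proteoglycan decorin, was at 5293, 9445 and 8948 in the glands and 219 to 3246 (median 571) in the tumors (-3.59 ± 0.62, adjusted p = 0.000298), and *Pdgfra*, a receptor of fibroblasts, at 2502 to 3817 and 333 to 1423 (median 712) (-2.13 ± 0.37). *Col1a1* and *Col3a1* were not called (0.08 ± 0.58 and 0.24 ± 0.59). N tumor 3 was far above the other tumors in both, with 118481 of *Col3a1* against 10912 to 21348 in the others. Beneath the epithelium, the laminin chain *Lama3* of the basal layer fell from 6372 ± 791 to 92.1 ± 26.6 (-6.16 ± 0.29, adjusted p = 1.7e-08) and *Lamb3* from 3722 ± 199 to 578 ± 473. *Lama4*, a laminin of vessels, rose from 1719 ± 163 to 7761 ± 2289 (2.13 ± 0.22). Of 19 basement membrane genes 1 was higher and 6 lower, and with the length trend removed 4 were higher and 5 lower. Among 21 tested matrix proteases, inhibitors and lysyl oxidases 2 rose (*Loxl3* by 1.91 and *Timp1* by 1.66) and 9 fell, *Timp1* not being called with the length trend removed. *Adamts1* fell most, from 17354 ± 4094 to 772 ± 434 (-4.65 ± 0.43).

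Most vessel markers were lower. Of 20 endothelial genes 16 were lower (14 with the length trend removed), with a median of -1.99. *Vwf*, the clotting factor of mature endothelium, was at 11829, 13002 and 12397 in the glands and 169 to 871 (median 481) in the tumors (-4.72 ± 0.40, adjusted p = 1.33e-06), and *Pecam1* at 4001 to 5991 and 968 to 1661 (median 1027) (-2.12 ± 0.19). The 2 that rose were *Apln*, the apelin of tip cells, at 33.7, 34.2 and 46.5 and 326 to 802 (median 478) (3.69 ± 0.25, adjusted p = 3.14e-07), and *Esm1*, another tip cell gene, at 27.3 to 37.7 and 151 to 598 (median 298) (3.31 ± 0.39, adjusted p = 1.84e-05). The list summed to 7272 to 11752 in the tumors, 33942 to 43269 in the WT glands and 27607 to 56823 in the glands of N and NP mice.

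Immune genes parted by cell type. Of 20 macrophage genes 13 were higher and 3 lower, with a median of 1.46, and 11 were higher with the length trend removed. The list summed to 8676 to 13963 in the WT glands and 25410 to 75335 in the tumors. It summed to 33057 to 84845 in the glands of N and NP mice, so the WT glands were the group that stood apart. *Trem2*, a lipid receptor of tissue macrophages, was at 6.4, 6.83 and 6.2 in the glands and 149 to 499.9 (median 286) in the tumors (5.27 ± 0.33, adjusted p = 1.46e-07), *C1qa* at 465 to 596 and 2261 to 5174 (median 3294) (2.66 ± 0.24), and *Adgre1*, which encodes F4/80, at 222 to 306 and 770.2 to 1509 (median 941) (1.85 ± 0.20). *Marco* and *Timd4*, markers of particular resident macrophages, fell (log2 fold changes -6.20 and -5.38). Of 20 T and NK cell genes 17 fell and 0 rose. *Cd3e* was at 148, 199 and 91.5 and 2.24 to 19.5 (median 10.1) (-3.89 ± 0.56, adjusted p = 7.63e-05), and *Foxp3*, the regulatory T cell factor, at 12.4 to 16.1 and 0 to 4.04 (median 0). Of 20 B and plasma cell genes 16 were lower, and 13 of the 15 that are protein-coding were lower with the length trend removed. *Pax5*, the B cell factor, was at 284, 519 and 449.5 in the glands and 0 to 48.5 (median 2.42) in the tumors (-6.63 ± 1.02, adjusted p = 0.00013). The member that rose, *Xbp1*, from 4638 ± 714 to 33033 ± 13336, belongs also to secretory epithelium.

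Interferon-stimulated genes rose, with 15 of 22 higher, 0 lower and a median of 2.06. *Oas1a*, a sensor of double-stranded RNA, was at 42.6, 63.5 and 55.8 in the glands and 298 to 2675 (median 862) in the tumors (4.10 ± 0.55, adjusted p = 4.81e-05). *Irf7*, which amplifies the response, was at 279, 382 and 287 in the glands, 739.6, 8183, 1422 and 4424 in N tumors 1 to 4 and 2382, 1799, 1294 and 1722 in NP tumors 1 to 4 (2.74 ± 0.57, adjusted p = 0.00119). *Ifit3* was at 41.8, 80 and 40.3 in the glands, 65.9, 2382, 559 and 3508 in N tumors 1 to 4 and 677, 601, 349 and 481 in NP tumors 1 to 4, so N tumor 1 overlapped with the glands. N tumors 2 and 4, the lowest in caseins, were the highest in *Irf7*, *Ifit3*, *Isg15* and *Usp18*. *Isg15* was not called with the length trend removed. The list summed to 67258 and 68919 in those 2 tumors and to 10743 to 22264 in the other 6, and without them 14 members were higher. In the WT glands it summed to 9108 to 10856, so N tumor 1, at 10743, lay within their range. In the glands of N and NP mice it summed to 7421 to 24768. Of 16 genes of antigen presentation 1 was higher and 3 lower, and *H2-D1* was at 16449 to 19699 and 10674 to 28128 (median 18916) (0.08 ± 0.29).

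**Figure D4:**
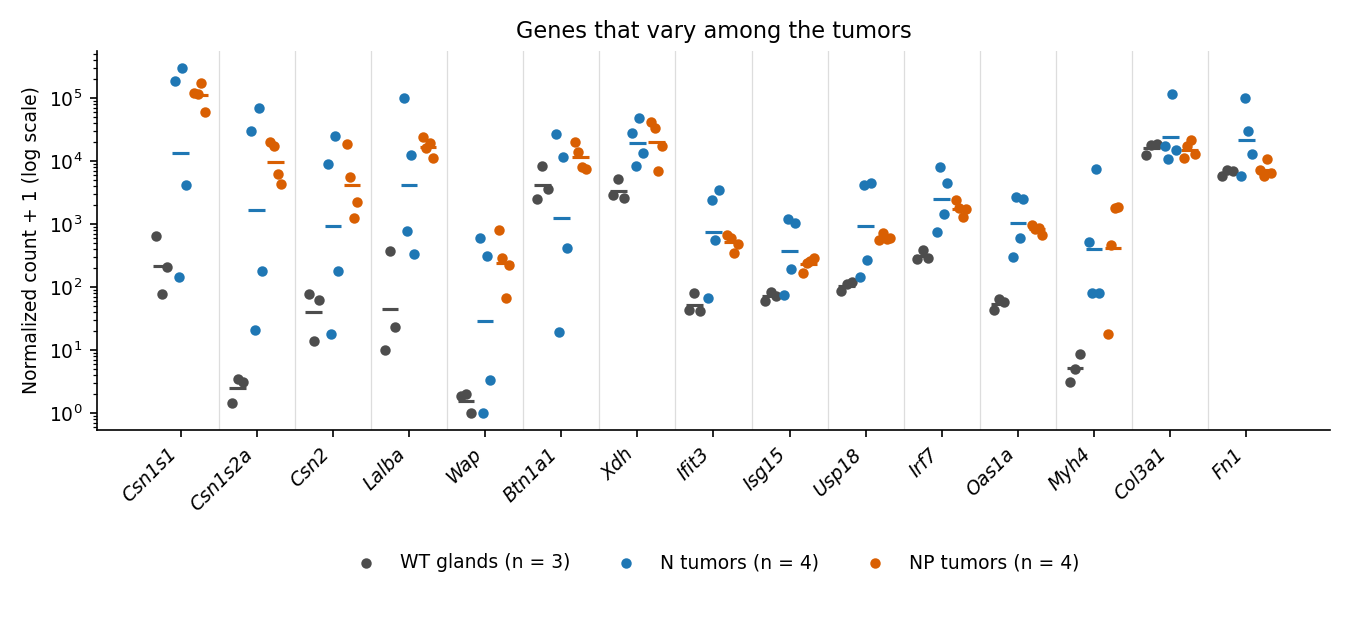
Normalized count + 1 (log axis) of milk genes (left), interferon-stimulated genes (middle) and *Myh4*, *Col3a1* and *Fn1* (right) in the 3 WT glands (gray), 4 N tumors (blue) and 4 NP tumors (orange); points are libraries, in replicate order within a group, and bars the group means of the log2 values. N tumors 2 and 4 have the lowest *Csn1s2a* (20 and 176) and the highest *Ifit3* (2382 and 3508).

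Globin transcripts were near absent from the WT glands and present in every tumor: *Hba-a1* was at 2.56, 1.46 and 0 and 189 to 2317 (median 896) (8.57 ± 0.67, adjusted p = 8.15e-07). *Hba-a2* had 3 reads in the 3 WT libraries together, and the tumors' mean over that level gave a ratio of 889 (95% counting interval 304 to 4309.6). Of 6 tested red cell genes 5 were higher and 0 lower. The list summed to 73.9 to 93.8 in the WT glands, 1343 to 12239 in the tumors and 9125 to 28197 in the glands of N and NP mice, so the WT glands were again the group that stood apart. Of 12 skeletal muscle genes 5 were higher and 1 lower, led by *Myh4* at 512, 80.1, 7402 and 80.5 in N tumors 1 to 4, 16.8, 469.7, 1805 and 1845 in NP tumors 1 to 4 and 2.13, 3.9 and 7.75 in the glands (6.30 ± 1.51). The tumors spread widely, N tumor 3 being the highest. Without N tumors 2 and 4 the counts were 9 and 1, and with the length trend removed 3 and 1. DESeq2 gave 11 higher and 0 lower, and edgeR 10 and 0. Of 18 adipocyte genes 3 were higher and 3 lower. *Adipoq* was at 282, 3.16, 556 and 109.7 in N tumors 1 to 4 and 72.9, 194, 184 and 63.7 in NP tumors 1 to 4, so N tumor 2 overlapped with the glands. Without N tumors 2 and 4 the counts of the list were 11 and 1, and with the length trend removed 1 and 3. DESeq2 gave 9 and 2, and edgeR 5 and 1.

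Most glycolytic genes were higher. Of 23 genes of glycolysis and glucose transport 18 were higher and 3 lower, with a median of 1.80, and 17 were higher with the length trend removed. At the committed step *Pfkl*, the liver type phosphofructokinase, was at 2464, 2045 and 2285 in the glands and 19978 to 28018 (median 23716) in the tumors (3.40 ± 0.14, adjusted p = 6.79e-09). *Aldoc*, an aldolase, was at 2167, 2299 and 1985 and 39323 to 111390 (median 74002) (4.96 ± 0.28, adjusted p = 7.02e-08). Downstream, *Pgk1* rose by 3.52, *Pkm* by 2.89 and *Ldha*, which makes lactate, by 2.83. The members that fell were the transporters *Slc2a3* (-4.19 ± 0.37) and *Slc2a4* (-2.29 ± 0.61) and *Pfkfb3*, which makes the activator of phosphofructokinase (-2.05 ± 0.37). *Slc2a1*, the main glucose transporter, was at 2396 to 3558 and 1696 to 4708 (median 2488) and was not called. The summed level was 60142 to 72241 in the WT glands, 338681 to 460938 in the tumors and 100412 to 516077 in the other glands. Nuclear genes of the respiratory chain rose in 69 of 81 tested (median 1.76), and 41 were higher with the length trend removed. Their summed level was 68949 to 88028.5 in the WT glands, 214861 to 275841 in the tumors and 172456 to 645919 in the other glands. The tumors thus lay within the range of the other glands, and the WT glands stood apart. Ribosomal protein genes rose in 40 of 79, or 24 with the trend removed, and replication-dependent histone genes in 51 of 58, or 38. Of 15 tested genes of the mitochondrial genome 2 were higher and 8 lower, and with the length trend removed 0 and 8 of 11. The 2 higher ones were its ribosomal RNA genes (median 4.64). Of its 11 tested protein-coding genes 0 were higher and 6 lower. The summed level of all 37 of its genes in the table was 97179.7 to 108226 in the WT glands and 223745 to 636132 in the tumors. Most histone transcripts lack a poly(A) tail, and for library preparation the records give a total RNA kit where the study's methods give an mRNA kit. The part of RNA selection in these results was not tested.

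Of 20 genes of fatty acid synthesis 7 were higher and 2 lower, 10 and 2 with the length trend removed. The list summed to 51878 to 58198 in the WT glands and 122895 to 379642 in the tumors. In the glands of N and NP mice it summed to 145159 to 1678940, so the WT glands stood apart and the tumors overlapped with the other glands. *Scd1*, the stearoyl-CoA desaturase, was at 3725, 7027 and 5029 and 29294 to 168284 (median 64677) (3.70 ± 0.55, adjusted p = 0.000106), *Acsl4*, which activates polyunsaturated fatty acids, at 2119.5 to 2349 and 12238 to 58953 (median 29824) (3.65 ± 0.34), and the lipogenic factor *Srebf1* at 5376 to 6893 and 10546 to 67026 (median 53581) (2.74 ± 0.48). *Fasn*, the synthase itself, was at 7695 to 12272 and 6769.6 to 29762 (median 14413) and was not called (adjusted p = 0.288), and the desaturases *Fads1* and *Fads2* fell (log2 fold changes -2.34 and -1.05). In the cholesterol pathway 6 of 22 genes were higher and 2 lower. *Pmvk*, a kinase of the mevalonate pathway, rose from 214 ± 6.65 to 932 ± 140.1, and the factor *Srebf2* fell from 6377 ± 1415 to 1932 ± 377 (-1.72 ± 0.17).

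Of 20 genes of the unfolded protein response 11 were higher and 2 lower, 8 and 2 with the length trend removed. *Pdia4*, a disulfide isomerase of the endoplasmic reticulum, was at 1708 to 3076 and 9053 to 13151 (median 10471) (2.18 ± 0.17), *Calr* at 7066 to 12077 and 25424 to 35967 (median 30388) (1.62 ± 0.17), and *Trib3*, a target of ATF4, at 117, 144 and 153 and 786 to 1941 (median 1525) (3.32 ± 0.24, adjusted p = 4.42e-07). *Ppp1r15a*, another stress gene, fell from 4752 ± 150.1 to 571 ± 126 (-3.09 ± 0.20). *Slc6a14*, a broad amino acid transporter, was at 14.1, 4.88 and 20.2 in the glands and 703 to 1882 (median 1462) in the tumors (6.75 ± 0.36, adjusted p = 4.03e-08), whereas *Slc7a2*, an arginine transporter, fell from 11768 ± 2041 to 399.6 ± 368 (-5.36 ± 0.67) and *Slc1a5*, a glutamine transporter, fell too (-2.29 ± 0.22). The serine pathway enzymes *Phgdh*, *Psat1* and *Psph* rose by 1.69, 1.96 and 1.14. In all, 5 of 20 genes of this list were higher and 3 lower.

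Of 23 tested Wnt genes 17 fell and 1 rose, with a median of -1.98. The list summed to 42700.7 to 47352.5 in the WT glands, 22661.5 to 44948 in the tumors and 18535 to 23948 in the glands of N and NP mice. *Lgr5*, a stem cell receptor and Wnt target, was at 1826, 1952 and 899 in the glands and 3.9 to 50.5 (median 8.96) in the tumors (-6.85 ± 0.61, adjusted p = 2.22e-06), the feedback target *Axin2* at 1013, 336 and 718 and 6.32 to 71.7 (median 22.2) (-4.74 ± 0.62), and the ligand *Wnt10a* at 201.3 to 283 and 0 to 4.04 (median 0.61). The member that rose, the inhibitor *Sfrp1*, overlapped between groups and was at the threshold (adjusted p = 0.05), losing its call under 15 alternatives. Among 16 tested Notch genes 2 rose and 9 fell. The ligands *Jag1* and *Jag2* fell (log2 fold changes -2.83 and -4.99) and *Notch1* (not called with the length trend removed) from 17052 ± 1958 to 5921 ± 2024 (-1.58 ± 0.24), and the target *Hey1* rose from 1914 ± 1032 to 7801 ± 2191 (2.14 ± 0.34, adjusted p = 0.000174). Among 24 TGF-beta and BMP genes 2 rose and 11 fell, 1 and 9 with the length trend removed. Their sum was 84605.5 to 97599 in the WT glands, 45540 to 80927.5 in the tumors and 34399 to 50128 in the glands of N and NP mice. The BMP targets *Id1* and *Id3* fell (log2 fold changes -2.48 and -3.73), whereas *Id2* rose by 1.86. *Tgfb1* fell from 991 ± 73.3 to 297 ± 151 (-1.88 ± 0.37).

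Of 18 tested regulators of epithelial-mesenchymal transition 0 were called higher and 9 lower (7 with the length trend removed). In 1 member every tumor lay above every WT gland, without a call. *Cdh3*, the cadherin of basal cells, fell from 2383 ± 204 to 277 ± 285 (-3.76 ± 0.79), *Zeb1* from 1127 ± 195 to 330.4 ± 142 (-1.84 ± 0.30) and *Twist2* fell too (-3.50 ± 0.58). *Fn1* was not called (0.95 ± 0.76) and reached 102219 in N tumor 2 and 30408 in N tumor 3, against 5731 to 12943 in the other tumors. Of core PI3K and AKT components 1 of 25 was called higher and 3 lower (4% and 12%), below both background shares of calls. Without a fold threshold, every tumor lay below every WT gland in 8 of the 25 and above in 3. Over all genes tested these shares were 28.9% and 25.3%. *Foxo1*, which AKT keeps out of the nucleus, fell from 5942 ± 402 to 1508 ± 613 (-2.09 ± 0.33), and *Eif4ebp1*, a target of mTOR, rose by 1.52. Of 18 clock genes 8 were lower and 0 higher, 6 and 1 with the length trend removed. *Per1* fell from 9611 ± 2051 to 1642 ± 675 (-2.64 ± 0.34) and *Nr1d1* from 2397 ± 375 to 527 ± 211 (-2.31 ± 0.39), while *Arntl* and *Clock* were not called.

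**Figure D5:**
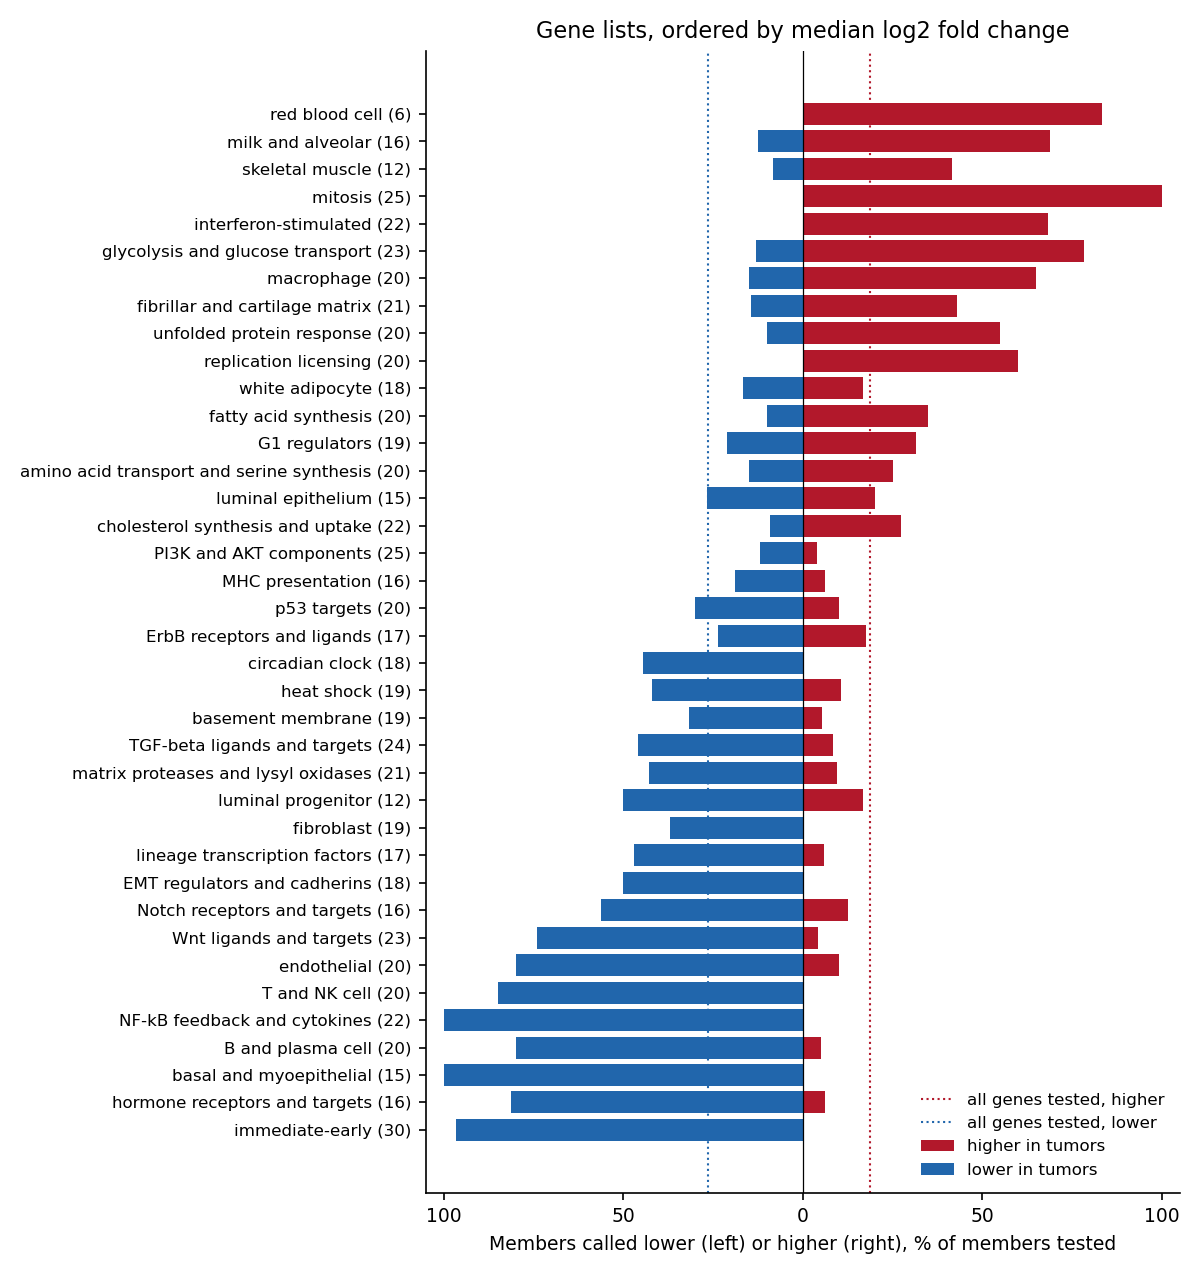
Share of the tested members of each of 38 gene lists called higher (red, right) or lower (blue, left) in the tumors, in percent of members tested (number in brackets), ordered by median log2 fold change; dotted lines mark the shares over all genes tested, 18.8% higher and 26.5% lower. The mitosis list is called whole in one direction, and the basal and NF-kB lists whole in the other.

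The 10 largest rises among protein-coding genes with a mean of at least 100 in the higher group and no overlap were those of *Csn1s2a*, *Col9a1*, 3 globins and 5 further genes. *Scgb2b27*, a secretoglobin, was at 1.28, 9.27 and 5.17 in the glands and 111 to 7546 (median 2742) in the tumors (8.31 ± 1.15), and *Car6*, a secreted carbonic anhydrase, at 2.13, 4.39 and 14.5 and 427 to 6687 (median 1971) (8.01 ± 0.80, adjusted p = 4.86e-06). *Duox1*, a dual oxidase that makes hydrogen peroxide, was at 16.2, 21 and 10.9 and 1104 to 10289 (median 3734) (7.63 ± 0.68), and its maturation factor *Duoxa1* at 16.2, 18.1 and 11.4 and 1528 to 7906 (median 3275) (7.71 ± 0.54, adjusted p = 3.35e-07). *Fetub*, a secreted protease inhibitor, was at 3.41, 2.93 and 5.68 and at 172, 3095, 2519 and 8249 in N tumors 1 to 4 and 455, 833, 553 and 528 in NP tumors 1 to 4 (7.72 ± 0.95), highest in N tumors 4 and 2. The 10 largest falls under the same rule included *Fosb*, *Krt5* and several genes of cell contact. *Col17a1*, the hemidesmosome collagen of basal cells, was at 6606, 6225 and 6112 in the glands and 1.05 to 11.7 (median 3.62) in the tumors (-10.12 ± 0.54, adjusted p = 4e-08). *Nrxn3*, *Tenm2* and *Ntng1*, adhesion proteins best known from synapses, were at 2698 to 5296, 2285 to 3679 and 1798 to 2304 in the glands and at most 12.5, 6.49 and 16.2 in the tumors. *Gabrg3*, a GABA receptor subunit, was at 468, 582 and 575 in the glands and had 0 reads in all 8 tumors, at least 1257-fold lower against a floor of 3 reads over the group. *Abcc8*, *Adamts18* and *Ido1*, which breaks down tryptophan, fell (log2 fold changes -9.05, -8.95 and -8.97).

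Few genes separated N from NP tumors. Against the same WT glands, 3382 and 4737 genes in N tumors and 3519 and 4883 genes in NP tumors were called higher and lower. In NP minus N tumors 9 of 18735 genes were called (0.048%). *Krt17*, a stress and basal keratin, was at 40.9, 53.7, 40.4 and 79.4 in N tumors 1 to 4 and 232, 329, 244 and 321 in NP tumors 1 to 4 (log2 difference 2.41, adjusted p = 0.00563), all below the 4651 to 6349 of the WT glands. *Reep1*, which shapes the endoplasmic reticulum, was at 82.9, 51.6, 71.7 and 65.4 and 297, 567, 634 and 309.6 (adjusted p = 0.00595), and *Rims2*, a protein of vesicle release, at 7.95, 2.11, 6.06 and 1.17 and 202, 81.7, 533 and 367 (adjusted p = 0.00595). *Tmem229b*, *Tal2* and *Gm9522* were higher in NP tumors too, with log2 differences of 1.84, 3.07 and 4.79. The 3 genes lower in NP tumors, *Trim5*, *Trim12a* and *Trim30d*, are paralogs of the antiviral TRIM family. *Trim5* was at 44.3, 56.9, 31.3 and 37.3 in N tumors and 1.12, 2.44, 0 and 2.5 in NP tumors. *Trim12a* was at 102.3, 352, 147 and 316 and 33.6, 9.76, 31.2 and 15, and *Trim30d* at 53.4, 266, 252 and 186 and 14.6, 13.4, 18.2 and 18.7. The groups did not overlap in any of these 9 genes, but the genes were picked by this same difference, so that is no further support. *Krt17*, *Rims2*, *Gm9522* and *Trim5* were called under every alternative that tested them, whereas *Tal2*, *Trim12a* and *Trim30d* each lost the call under 12 alternatives, among them the removal of any 1 tumor other than N tumor 1. Reads of such near copies can be split or shared between them, so the paralogs are uncertain one by one, and the mixed strain background of the cohorts was not resolved by sample. The count depended on N tumor 1, without which 334 genes were called. DESeq2 on the recovered reads called 160.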

How the data were processed

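RNA from 8 tumors and 3 WT glands, of 19 samples in the series, was compared. By the labels and the study's methods, the authors aligned paired reads to GRCm38 with TopHat2 2.1.1 and Bowtie2, and the counting tool and annotation are not given in the sources used here. The authors deposited normalized counts per gene (unit: signal), that is, read counts divided by a size factor for each library by DESeq2. Dividing each column by its step gave whole reads (tolerance 0.05) for 100% of values, from which depth and the count tests were taken. The labels name a TruSeq Stranded Total RNA kit and the methods an mRNA kit. Symbols, biotypes, exon lengths and coordinates came from GENCODE vM21, which held 97.97% of the 46078 identifiers.

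Genes with at least 10 normalized counts in at least 3 samples were tested with limma 3.58.1 (R 4.3.3, moderated with a trend, no covariates) on log2(normalized count + 1), tumors minus WT glands, with Benjamini-Hochberg adjustment over all genes tested and calls at an adjusted p under 0.05 and at least 2-fold. Fold changes on this scale understate those of low genes. N and NP tumors were compared in a fit of 3 groups. Erbb2, Trp53 and the shares of reads were also compared by two-sided exact permutation tests. Alternatives were edgeR 4.0.16 and DESeq2 1.42.0 on the recovered reads, TMM scaling, other pseudocounts and filters, a replicate block, thinned WT reads, each sample left out and, chosen after seeing the data, N tumors 2 and 4 left out and the length trend removed (a loess of each library's deviations on exon length and gene span). Scripts were tested on simulated data. Floors of 3 reads and intervals cover counting error only.

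The groups came from the labels. NP tumors 1 and 2 carry library names with the same number and may share an animal, so they were also averaged, and p-values measure the spread between these samples. The gene lists (38 lists, 725 genes) and the comparison itself were chosen with earlier results of these data known. Named genes were Erbb2, Trp53, the 10 largest rises and falls among called protein-coding genes with no overlap and a mean of at least 100 in the higher group, the genes called between N and NP tumors (named after their values were seen), and members of the lists. Promoters are the 250 bases before the RefSeq start (GRCm38.p6), and the printed genes were chosen after their values were seen. A few members of the lists are not reported by name here.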

Additional observations from a re-analysis of the deposited data

Results flagged for a closer look

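Of 234 genes examined for the tumors against the WT glands, 21 (9%) had 1 tumor whose log2 gap to the nearest other tumor, as a share of the whole range of the 8 tumors, exceeded Dixon's 95% limit. Chance alone sets apart about 1 in 20 such groups, and genes of the same cells do not count independently.

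N tumor 2 was the tumor set apart in 10 genes. It was highest in the heat shock genes *Hspa1a* (1220 against 363.5 to 552.2 in the other tumors), *Hspa1b* (3945 against 793.6 to 1543) and *Hsp90ab1* (64420 against 41780 to 48510), and in *Cited1*, a coregulator of hormone-sensing cells (844 against 6.243 to 49.36). It was lowest in *Adipoq* (3.161 against 63.68 to 556.4), the desaturase *Fads1* (250.8 against 741.9 to 1423), the matrix gene *Ltbp2* (2793 against 9346 to 24320), the luminal factor *Gata3* (182.3 against 1466 to 3312), the ErbB ligand *Nrg4* (3.161 against 17.51 to 62.61) and *Id4* (0 against 2.272 to 7.793). In *Adipoq*, *Nrg4* and *Id4* N tumor 2 held few or no reads, so the size of those gaps is subject to counting error. In *Id4* the other tumors held few reads as well.

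N tumor 3 was highest in 5 matrix genes: *Col1a1* at 69620 against 6361 to 15270, *Col3a1* at 118500 against 10910 to 21350, *Thbs2* at 11690 against 1794 to 2929, *Cilp* at 5658 against 606.5 to 1261, and *Timp1* at 852.3 against 139.8 to 229.7. N tumor 4 was lowest in *Btg2*, an immediate-early gene (455.2 against 867.1 to 1404), and in *Muc1* (152.9 against 438.3 to 1055), and highest in the pyruvate kinase *Pkm* (93740 against 56010 to 67030) and in *Srebf2* (2801 against 1559 to 2057). NP tumor 2 was highest in the complement receptor *Cr2* of B cells, at 153.7 against 0 to 5.049, and NP tumor 3 in *Cxcl15*, at 33.77 against 0 to 4.215.

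The genotypes differed by the test of NP minus N tumors (limma, adjusted p under 0.05 and at least 2-fold) in *Krt17* (2.41 on the log2 scale), *Reep1* (2.65), *Rims2* (5.72), *Tmem229b* (1.84), *Tal2* (3.07), *Gm9522* (4.79), *Trim5* (-4.24), *Trim12a* (-3.28) and *Trim30d* (-3.24).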

How the results depend on the processing

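For 243 results on single genes, 6558 of 6710 alternative values kept the direction and side of the threshold, 118 lost a call, 33 gained one and 1 turned. The value that turned was that of *Btn1a1*, at 1.64 and called higher without N tumors 2 and 4, against -0.16 with all tumors. Calls were lost often for *Sfrp1* (15 alternatives), *Tal2*, *Trim12a* and *Trim30d* between the genotypes (12 each), *Fads2* (7), *Hspa5* and *Pparg* (6 each) and *Des* (5, among them the removal of WT gland 2 or 3), and gained most often for *Ehf* and *Tfap2c* (7 each). Counts for the tumors against the WT glands were 3268 to 3575 higher and 4526 to 4989 lower with 1 library left out, 3942 and 4602 with edgeR, 3864 and 4772 with DESeq2, 3770 and 4781 with TMM, 3801 and 7090 with no filter, and 3549 and 4906 with WT reads thinned. With no fold threshold 5626 genes were higher (5225 in N and 5332 in NP tumors alone), as the construction implies. Fewer genes were tested where lower genes came to 2902 (mean of at least 50, 14115 genes tested) and 3268 (length trend removed, 14899 protein-coding genes, of which 3490 were lower without the removal). NP minus N tumors gave 17 genes with no filter, 160 with DESeq2, and 5 to 334 with 1 library left out, the highest without N tumor 1, and the cause was not tested. The first principal component held 65.8% over all genes and 69.6% to 83.0% with 1 library left out, lowest without a WT gland.

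Same-numbered libraries did not deviate together, so the replicate numbers name the samples only. With the number as a replicate block, 3466 genes were higher and 4784 lower in the tumors, and 4 genes differed between NP and N tumors. The comparison is limited by 3 WT glands whose depth and RNA classes differ from those of every tumor, so tissue and library cannot be told apart for genes that follow those traits, and at tumor depths a floor of 3 reads over the group is 0.431 normalized counts.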

Other observations

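The glands of N and NP mice place some classes of RNA beside the comparison. Casein genes took 0.0103% to 0.019% of reads in the WT glands, 0.3% to 2.69% in the tumors and 0.0102% to 0.657% in the other glands. *Erbb2* itself was at 1845 to 14718 normalized counts in the other glands, a range that spans the WT glands and lies below every tumor. *Fosb* was at 13.4 to 96.7 and *Krt5* at 512 to 1691 in them. In *Fosb* this range overlaps with the tumors, and in *Krt5* it lies between the tumors and the WT glands. *Col9a1* was at 63.2 to 3766 and *Col11a1* at 69.7 to 2365 in the other glands, *Slc6a14* at 0 to 189 and *Duoxa1* at 78.3 to 1004. These values have no test here.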
